A study of Mus musculus with 24 samples.

Results

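Snai3, Inmt, Smco1, Ky, Sbk2, Efnb3, Tcea3, Hdac11, Lrrc4b and Fndc5 are 10 of the 46078 genes in the deposited count table, chosen by their lower counts in injured than in uninjured hearts in both drug arms. RNA was sequenced from the ventricular apex of 24 male C57BL/6 mice aged 10 weeks, at day 5, in 4 groups of 6. The WT_PBS and WT_PYR groups are wild-type mice that had no diphtheria toxin, and the DTR_PBS and DTR_PYR groups are mice whose hearts were injured by diphtheria toxin, with DTR in their names standing for its receptor. The vehicle was PBS, and PYR stands for pyridostigmine, which blocks the enzymes that break down acetylcholine. The DTR groups differ from the WT groups in both genotype and toxin, so the effects of these cannot be told apart, and no label used here names the cells that carried the receptor. Each title carries its own animal tag, so each library was taken as 1 animal.

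Heart muscle that is stressed or dying is known to lower many genes of its adult contractile and metabolic programme, while inflammatory and scar-forming cells enter or multiply. The 10 genes share no pathway. Snai3, Tcea3 and Hdac11 act on transcription or chromatin. Ky, Sbk2 and Smco1 encode a muscle cytoskeletal protein, a kinase and a small membrane protein that are enriched in striated muscle. Efnb3, Lrrc4b and Fndc5 encode a ligand, an adhesion protein and a hormone precursor at the cell surface, and Inmt encodes a methyltransferase of small amines.

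The label under which the genes were gathered, genes lost in injured hearts, overstates the values: each gene fell to a fraction of its uninjured level but was still counted in every injured library, apart from Snai3 in 1 of them. Levels are given as CPM, the gene's counts relative to the library's total count, with totals rescaled between libraries by edgeR's TMM factors. The group means of the injured hearts were 7.43% to 43.6% of the uninjured means under PBS, with a median of 17.8% over the 10 genes, and 24.1% to 61.4% under pyridostigmine, with a median of 36.0%. No numeric threshold came with the choice. The member that fell least was Fndc5 under PBS, at −1.20 on the log2 scale, and Smco1 under pyridostigmine, at −0.68. Falls at least that large in both arms were fitted for 551 other genes. The fall of Snai3 ranked 8 of 15456 tested genes under PBS and 17 under pyridostigmine.

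Because the injury differences chose the genes, they are given as a description, with no p for any member, and the counts of calls and of groups apart that follow were largely set by the choice and support nothing. With edgeR's quasi-likelihood test across all genes, 10 of the 10 were called lower under PBS, where 21.6% of all tested genes were called lower. Under pyridostigmine 7 of the 10 were called lower, against 4.17% of all tested genes. That count was 4 without DTR_PYR 1, 2 or 3 or without WT_PYR 1, and 9 without DTR_PYR 4 or with the letter that ends the animal tags as a covariate. The injured libraries lay below all uninjured ones in 9 of 10 members under PBS, as in 11.0% of all genes, and in 8 of 10 under pyridostigmine, as in 3.18%. Without DTR_PYR libraries 4, 5 and 6, all 10 members were called lower under pyridostigmine, where 15.3% of genes were; those libraries were picked for lying near the uninjured hearts, so that leaving them out builds in a larger injury response.

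RefSeq promoter windows of GRCm38.p6 were matched to 8 of the 10 genes by symbol, and the stretches before the annotated gene are shown for 3 of them, with a short site for Tcea3, so that the letters found in them can be read beside the values. Motifs were searched on both strands in the 250 bases before the RefSeq start: the Snail-type E-box CAGGTG, the M-CAT element CATTCC, the ERR half-site AAGGTCA, the TATA box TATAAA, and the MEF2 and CArG boxes. Of 32851 windows of that length, 17.2% held the E-box, 12.6% the M-CAT element, 4.08% the ERR half-site, 12.4% the TATA box, 2.92% a MEF2 match and 1.47% a CArG box. Capitals mark the matches, and each sequence reads 5′ to 3′ on the gene's own strand. Inmt, minus strand, chr6:55175044-55175240, holds the E-box on the opposite strand, read here as CACCTG, and the TATA box at 2 places. Smco1, plus strand, chr16:32271230-32271467, holds the E-box on the opposite strand. Sbk2, minus strand, chr7:4964407-4964656, is shown because it fills part of the gap to its neighbour and paralog Sbk3. For Tcea3, plus strand, the site is chr4:136247880-136247909 around a MEF2 match, and it lies inside the annotated gene.
Inmt: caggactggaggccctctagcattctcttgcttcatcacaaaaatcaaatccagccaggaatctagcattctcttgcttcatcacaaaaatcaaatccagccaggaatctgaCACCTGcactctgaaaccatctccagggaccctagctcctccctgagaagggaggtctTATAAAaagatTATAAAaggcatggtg
Smco1: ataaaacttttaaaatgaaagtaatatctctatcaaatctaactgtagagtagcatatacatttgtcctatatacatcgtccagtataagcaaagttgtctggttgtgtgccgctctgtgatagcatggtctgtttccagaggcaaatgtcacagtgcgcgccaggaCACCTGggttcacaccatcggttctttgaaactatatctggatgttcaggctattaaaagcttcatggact
Sbk2: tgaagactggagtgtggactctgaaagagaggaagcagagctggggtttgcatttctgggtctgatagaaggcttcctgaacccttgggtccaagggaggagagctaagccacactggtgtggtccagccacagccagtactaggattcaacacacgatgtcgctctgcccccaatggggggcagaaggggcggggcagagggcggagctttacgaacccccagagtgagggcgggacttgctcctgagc
Tcea3: tccttgaagtCTATATTTAGtgcccgccac
The E-box was found in 2 of the 8 windows, those of Inmt and Smco1. Inmt also carries an exact direct repeat of 49 bases whose copies start 46 bases apart, so they overlap. The ERR half-site was found in Smco1 inside the annotated gene, and the M-CAT element in Hdac11. None of the 6 motifs was found in the Sbk2 window or in those of Ky, Lrrc4b and Fndc5, and no motif was shared by more than 2 of the 8 windows. For Ky and Lrrc4b all 250 bases lie inside the annotated gene, so the sequence before its annotated start was not searched. A match is a description of letters and says nothing of binding.

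**Figure D1:**
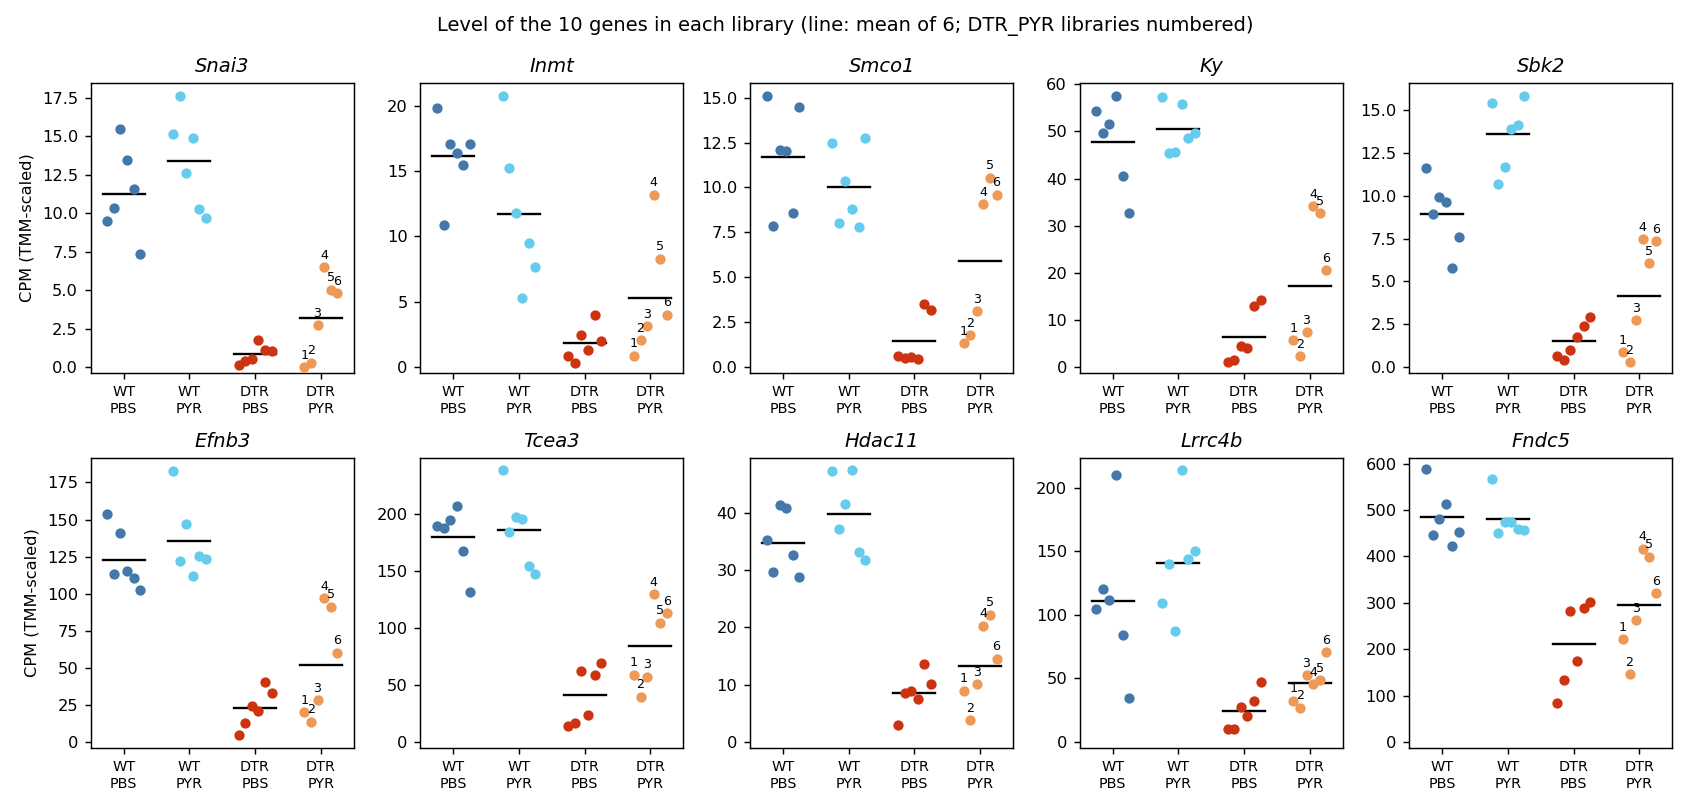
CPM of each of the 10 genes in the 24 libraries, by group, with a horizontal line at the mean of 6 libraries and the DTR_PYR libraries numbered; the vertical axis differs between panels. The DTR_PBS libraries lie below the WT_PBS libraries in 9 of 10 panels, Lrrc4b being the exception, and DTR_PYR libraries 4, 5 and 6 lie above 1, 2 and 3 in 9 of 10, again except for Lrrc4b.

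Among the regulators of transcription, Snai3 is a zinc-finger repressor of the Snail family, which binds E-box letters (GRCm38, chr8:122454208-122460733, minus strand). Its levels in WT_PBS were 7.34, 10.9 and 15.5 CPM as the lowest, median and highest of 6 libraries, against 0.15, 0.804 and 1.77 in DTR_PBS. In WT_PYR they were 9.71, 13.8 and 17.6 and in DTR_PYR 0, 3.77 and 6.48. Every injured library lay below every uninjured library of its arm. The DTR_PYR library at 0 was number 1, with 0 reads of 5969640, a count that allows a level of up to 0.441 CPM, and library 2 had 1 read. The injury difference was −4.19 (SE 0.59) under PBS and −1.94 (SE 0.48) under pyridostigmine, on the log2 scale.

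Tcea3 encodes a tissue-restricted member of the elongation factor S-II family, which helps stalled RNA polymerase II resume (chr4:136247729-136274898, plus strand). The lowest, median and highest levels were 132, 189 and 207 CPM in WT_PBS and 14.4, 41.5 and 69.00 in DTR_PBS. They were 147, 189.6 and 238 in WT_PYR and 39.7, 81.8 and 129 in DTR_PYR. The groups did not overlap in either arm, and the highest DTR_PYR library, number 4, was the injured library nearest to the WT_PYR range. Tcea3 kept 22.8% of its WT mean under PBS and 45.1% under pyridostigmine.

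Hdac11, a histone deacetylase that forms a class of its own and also removes fatty acyl groups from lysine (chr6:91156665-91174692, plus strand), fell from 28.8, 33.9 and 41.3 CPM in WT_PBS to 2.90, 8.72 and 13.6 in DTR_PBS. In the pyridostigmine arm the levels were 31.7, 39.3 and 47.4 in WT_PYR and 3.85, 12.4 and 22.2 in DTR_PYR. Neither pair of groups overlapped. Hdac11 is the member whose mean was most alike in both arms, with 24.8% of the WT mean left under PBS and 33.6% under pyridostigmine. The libraries are not strand-specific, and 17.9% of its exon bases are shared with the opposite-strand loci Gm44002 and Gm14573. A part of its reads may therefore belong to these. Gm14573, with 2.5% of the bases, had 4 reads of its own in the 24 libraries, and Gm44002, with 15.4%, was not counted.

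Of the muscle proteins, Ky encodes a transglutaminase-like protein of the Z-disc whose absence causes kyphoscoliosis in mice (chr9:102505750-102546239, plus strand). Its levels were 32.7, 50.7 and 57.5 CPM in WT_PBS and 1.05, 4.27 and 14.1 in DTR_PBS, lowest, median and highest. They were 45.4, 49.2 and 57.3 in WT_PYR and 2.37, 13.95 and 34.1 in DTR_PYR. No injured library reached an uninjured one, but the injured libraries spread widely: the coefficient of variation was 10.1% in WT_PYR and 81.8% in DTR_PYR. In DTR_PBS the high libraries were 5 and 6, and in DTR_PYR they were 4 and 5.

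Sbk2 encodes a serine/threonine kinase of the SH3-binding domain kinase family, enriched in the heart (chr7:4956134-4964390, minus strand). WT_PBS libraries held 5.78, 9.29 and 11.6 CPM and DTR_PBS libraries 0.434, 1.37 and 2.94. WT_PYR libraries held 10.7, 14.02 and 15.8 and DTR_PYR libraries 0.296, 4.39 and 7.45. The groups of each arm did not overlap. DTR_PYR library 2 held a single read of Sbk2.

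Smco1 encodes a single-pass membrane protein with coiled coils whose function is little known (chr16:32271468-32274779, plus strand), and it showed the widest gap between the arms. In WT_PBS the levels were 7.88, 12.1 and 15.1 CPM and in DTR_PBS 0.443, 0.571 and 3.50. In WT_PYR they were 7.82, 9.56 and 12.7 and in DTR_PYR 1.32, 6.10 and 10.5. Under PBS the groups were apart, whereas DTR_PYR libraries 4, 5 and 6, at 9.07, 10.5 and 9.61 CPM, lay inside the WT_PYR range and libraries 1, 2 and 3 lay far below it. The WT mean left was 12.5% under PBS and 58.9% under pyridostigmine.

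Efnb3 is a transmembrane ephrin, a ligand of Eph receptor tyrosine kinases known for axon guidance (chr11:69554092-69560205, minus strand). It was measured at 103, 114 and 154 CPM in WT_PBS and 4.70, 22.6 and 40.5 in DTR_PBS. The pyridostigmine arm gave 112, 125 and 183 in WT_PYR and 13.6, 44.1 and 96.98 in DTR_PYR. Both pairs of groups were apart, and the lowest DTR_PBS library was number 1.

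Lrrc4b, also called netrin-G ligand 3, is a leucine-rich repeat adhesion protein best known at synapses, where it binds receptor phosphatases (chr7:44429018-44463351, plus strand). It varied most of the 10 genes in WT_PBS, with a coefficient of variation of 51.8% and levels of 34.4, 108 and 209.8 CPM in WT_PBS against 9.98, 23.8 and 46.8 in DTR_PBS. The levels in WT_PYR were 87.6, 142 and 214 and in DTR_PYR 26.9, 46.97 and 70.5. WT_PBS library 6, at 34.4, lay below DTR_PBS library 6, at 46.8, so the groups overlapped under PBS, and they were apart under pyridostigmine. This is the only member in which DTR_PYR library 3, at 52.6, was above libraries 4 and 5.

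Fndc5 encodes the membrane precursor of irisin, a hormone released by exercising muscle (chr4:129136999-129144593, plus strand). Its levels of 423, 467 and 588 CPM in WT_PBS and 83.3, 228 and 303 in DTR_PBS gave the smallest fall under PBS. In WT_PYR it was at 449, 466 and 567 and in DTR_PYR at 146, 292 and 416. The groups did not overlap in either arm, although 43.6% and 61.4% of the WT means were left. At 9.14% in WT_PYR and 12.3% in WT_PBS, its coefficient of variation was the lowest of the 10 genes in both uninjured groups.

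Inmt, indolethylamine N-methyltransferase, methylates tryptamine and related amines (chr6:55170626-55175043, minus strand). WT_PBS gave 10.9, 16.7 and 19.8 CPM and DTR_PBS 0.31, 1.67 and 4.001. WT_PYR gave 5.27, 10.6 and 20.7 and DTR_PYR 0.883, 3.56 and 13.2. The groups were apart under PBS and overlapped under pyridostigmine, where library 4 of DTR_PYR was above the WT_PYR median and library 5 was above the lowest WT_PYR libraries.

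Compared per length of exon, the uninjured level fell from Fndc5 at 175 CPM per kb in WT_PBS, through Tcea3 at 128, Efnb3 at 38.6, Lrrc4b at 37.8, Inmt at 10.1, Hdac11 at 9.03, Smco1 at 8.29, Ky at 8.12 and Snai3 at 6.93, to Sbk2 at 2.84. The libraries of Fndc5 and Tcea3, of Tcea3 and Efnb3, and of Snai3 and Sbk2 did not overlap, and every other pair of neighbours in this order overlapped. Fndc5 and Tcea3 stayed first and second in all 4 groups and Sbk2 last. The libraries of the injured hearts also ordered themselves alike across genes: DTR_PBS libraries 1 and 2 were each among the 2 lowest of their group in 9 of 10 genes, and DTR_PYR library 2 in 10 of 10. After centring on the group means, the 45 pairs of members had a median Pearson r of log2 CPM of 0.793 over the 12 injured libraries, 45 of them positive, and 0.477 over the 12 uninjured libraries, 37 positive. These r share libraries and depth and are a description only.

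The order of libraries inside DTR_PYR was also seen in other genes. Libraries 1, 2 and 3 were all below 4, 5 and 6 in 9 of 10 members, and the same order held in 21.8% of all tested genes. The animal tags of libraries 1 and 2 end in U and those of 3, 4, 5 and 6 in V, so order and letter partly coincide. On the first principal component of all other tested genes, with 44.1% of the variance, the WT libraries lay between −57.1 and −35.0 and the DTR_PBS libraries between 30.2 and 113. DTR_PYR libraries 1, 2 and 3 lay at 59.02, 104 and 40.97, within the DTR_PBS range, and libraries 4, 5 and 6 at −35.4, −25.6 and −20.9, near WT. Total counts ran from 1877914 to 37842245 per library, and the member counts from 0 to 16426. The summed skeletal muscle list was at most 2.05 CPM in any library and the atrial list at most 4.95, with Sln at 0 in DTR_PBS.

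Pyridostigmine in injured hearts, DTR_PYR against DTR_PBS, was not the contrast that chose the genes, but its libraries were used in the choice. All 10 genes had a higher fitted level with the drug, as had 49.6% of all tested genes, and none passed the test. Because the choice used these libraries, the shared direction is a description only. The edgeR quasi-likelihood test called 0 of 10 members and 0.0% of the 15456 genes, while 9 of 10 had an unadjusted p under 0.05 in the higher direction, as had 11.7% of all genes. The same contrast gave 3 members with the DESeq2 Wald test, where 1.11% of genes were called higher, and 8 members with limma voom, where 4.04% were. The median difference over the members was 1.39 on the log2 scale, against −0.0053 over all genes, and the groups' libraries overlapped in 10 of 10, where 0.162% of all genes were higher without overlap.

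Snai3 had the largest difference with the drug, 2.50 (SE 0.60) on the log2 scale, with an edgeR adjusted p of 0.131. Its DTR_PBS libraries ran from 0.15 to 1.77 CPM, and 4 of 6 DTR_PYR libraries lay above them. Smco1 followed with 2.14 (SE 0.50) and adjusted p = 0.131 in edgeR. Inmt and Sbk2 were each 1.69 higher, Ky 1.55, Efnb3 1.22 and Tcea3 1.04. The remaining genes differed least: Lrrc4b by 0.92, Hdac11 by 0.70, and Fndc5 by 0.48 with a 95% interval of −0.0059 to 0.97. The edgeR adjusted p values of the 10 ran from 0.131 to 0.283.

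The number of members called changed with single libraries. Without DTR_PYR 2 the edgeR test called 8 of 10 members and 7.61% of all genes higher, without DTR_PYR 1 it called 2 members and 0.0647% of genes higher, and without DTR_PBS 6 it called 1 member and 0.136%. Without DTR_PYR 4, 5 and 6, 0 members and 0% of genes were called higher. The differences of Ky, Sbk2, Efnb3, Hdac11 and Fndc5 then turned negative, at −0.25, −0.22, −0.14, −0.14 and −0.0054. The median over the 10 genes was then 0.031.

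**Figure D2:**
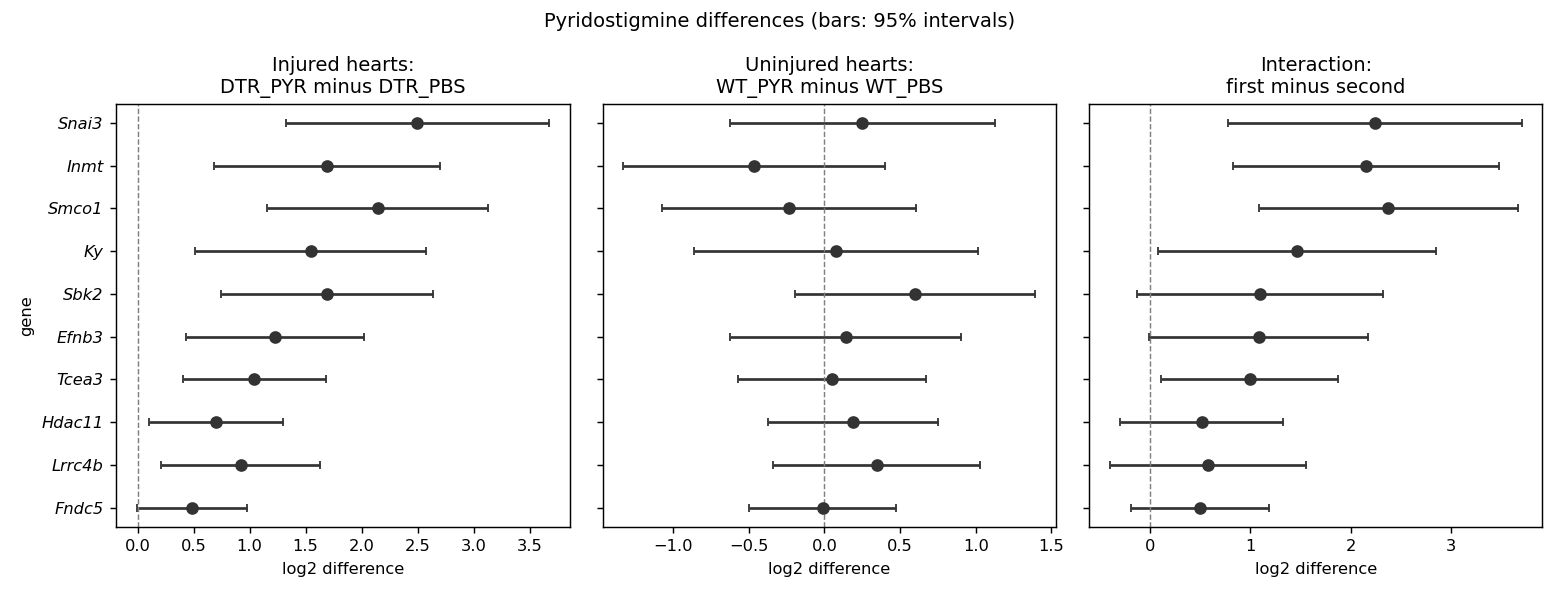
Fitted log2 difference of each of the 10 genes with pyridostigmine in injured hearts (left) and uninjured hearts (middle), and the interaction, which is the first minus the second (right); points are estimates and bars their 95% intervals, not adjusted for the number of genes. All 10 points lie right of 0 at left and at right, where 49.6% and 53.2% of all tested genes were above 0. In the middle all 10 bars cross 0.

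In uninjured hearts, WT_PYR against WT_PBS, the members ran from −0.46 for Inmt to 0.60 for Sbk2 on the log2 scale, with a median of 0.11 against −0.013 over all genes. No member was called by edgeR, where 0.0% of genes were, nor by DESeq2 or limma voom, and 0 of 10 had an unadjusted p under 0.05, against 3.11% of all genes in either direction and 0.543% in the higher one. The groups overlapped in all 10 genes, where 0.0906% of all genes were higher without overlap. The 95% interval for Sbk2, −0.20 to 1.39, includes 0 and rises above 1, and that of Inmt, −1.33 to 0.40, includes 0 and falls of more than 1. Fndc5, at −0.012, had an interval of −0.50 to 0.48, and its sign turned under total-count scaling, with limma voom and with only these 2 groups in the fit.

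The interaction, which asks whether the fall with injury differed between the arms, is built from the injury differences that chose the genes. Its signs, counts and p values for the members are therefore a description and support nothing. The interaction was positive in 10 of 10 members and in 53.2% of all tested genes. Its median over the members was 1.09 on the log2 scale, against 0.034 over all genes. Smco1 had the largest interaction, 2.38 (SE 0.66) with adjusted p = 0.486 in edgeR, followed by Snai3 at 2.25 and Inmt at 2.16. The edgeR test called 0 of 10 members and 0.0% of all genes, DESeq2 and limma voom also called 0 members, and 5 members had an unadjusted p under 0.05, as had 5.84% of all genes in the higher direction. Without DTR_PYR 4, 5 and 6 the interaction turned negative for Ky, Sbk2, Efnb3 and Hdac11.

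Cardiac muscle markers were also lower in the injured hearts under PBS. The summed CPM of 11 cardiomyocyte markers was 88937 ± 1155 (SD, n = 6) in WT_PBS and 50380 ± 20534 in DTR_PBS, and 93319 ± 5455 in WT_PYR and 68828 ± 16626 in DTR_PYR, ranging from 39946 to 85906 in the last group. Of the 11 markers 7 were called lower under PBS, as were 21.6% of all genes. Under pyridostigmine their differences, −0.75 to −0.12 on the log2 scale, did not pass the edgeR test. Macrophage markers were called higher in 7 of 7 in both arms and fibroblast markers in 4 of 7 and 5 of 7. Of all genes, 21.3% were called higher under PBS and 8.06% under pyridostigmine. Endothelial markers were called lower in 5 of 6 and 4 of 6, against 21.6% and 4.17% of all genes. Of 6 smooth muscle and pericyte markers, 2 were called higher and 2 lower under PBS, and 0 under pyridostigmine. Of 2 tested Schwann cell and neuron markers, and of 2 tested atrial ones, 0 were called in either arm. In bulk tissue, fewer muscle cells and less RNA per cell cannot be told apart.

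Divided by that marker sum in each library, the members still kept only part of their WT level: 13.4% for Snai3 to 75.9% for Fndc5 under PBS, with a median of 29.9%, and 28.6% for Snai3 to 80.9% for Fndc5 under pyridostigmine, with a median of 45.7%. The ratio was apart between the groups in 9 of 10 genes under PBS, Lrrc4b overlapping. Under pyridostigmine it was apart in 6 of 10, where Inmt, Smco1, Lrrc4b and Fndc5 overlapped. The choice of the genes largely set these counts, and no share over all genes was computed, so they support nothing. The 11 markers in the sum differed unevenly under PBS, by −1.44 to −0.055 on the log2 scale. Hdac11 kept 45.5% and 42.7%, and Ky 20.01% and 40.95%. In percentage points under PBS, dividing by the marker sum moved Fndc5 furthest, from 43.6% to 75.9% under PBS. The part of other cell types in these falls was not tested.

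**Figure D3:**
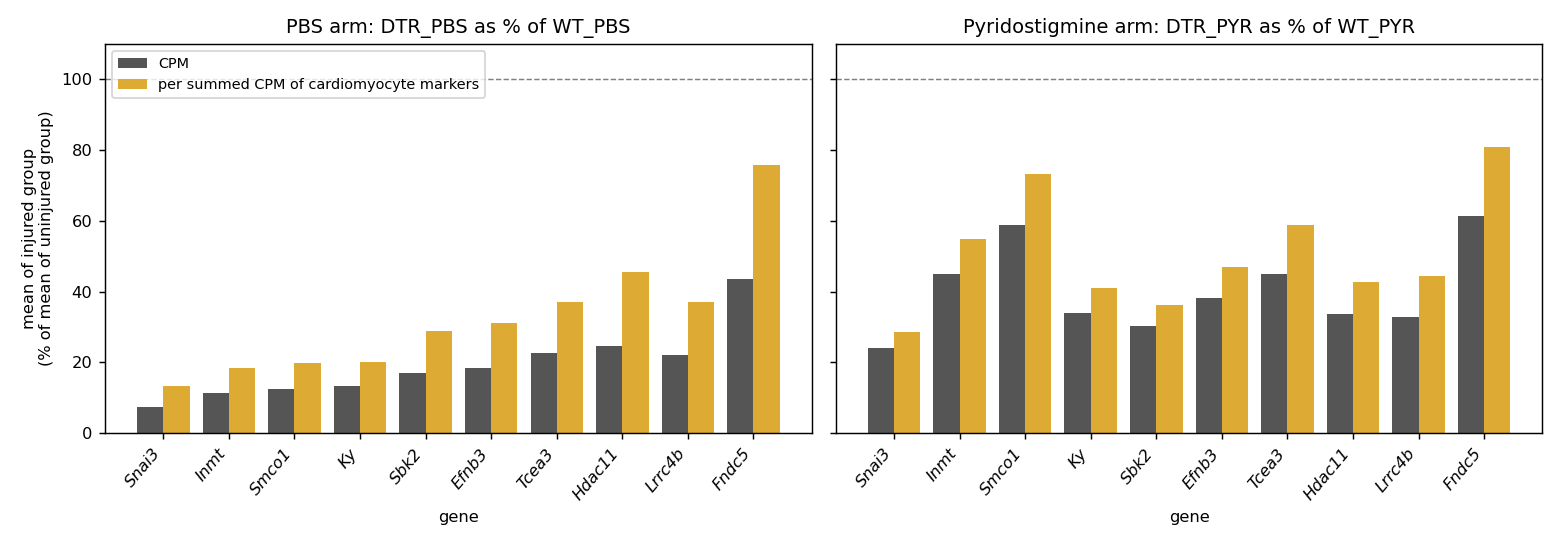
Mean of the injured group as a percentage of the mean of the uninjured group, for each gene in the PBS arm (left) and the pyridostigmine arm (right); dark bars are CPM, light bars the CPM divided by the summed CPM of 11 cardiomyocyte markers in the same library, and the dashed line is 100%. All bars lie under 100%, from 7.43% for the CPM of Snai3 under PBS to 80.9% for the ratio of Fndc5 under pyridostigmine.

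Tag letters U and V end the animal tags, with 4 U and 2 V animals in each WT group and 2 U and 4 V in each DTR group, and what they mark is not given. Within each letter the injury difference in mean log2 CPM was negative for 10 of 10 members in both arms. Under PBS it ran from −4.49 to −2.01 in U and from −3.63 to −0.96 in V. Under pyridostigmine it ran from −5.53 to −1.44 in U and from −1.68 to −0.31 in V. The choice of the genes largely set these signs, and no share over all genes was computed, so they support nothing. The drug difference in injured hearts was positive in 8 of 10 members in U and 10 of 10 in V. The exceptions in U were Snai3, at −1.52, and Sbk2, at −0.86, with 2 libraries in each group. Snai3, which had the largest fitted difference with the drug, thus changed sign with the letter. Its U libraries in DTR_PYR held 0 and 1 reads, so its value in U is poorly fixed. No share over all genes was computed for these signs.

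The relatives of these genes, 76 genes of their families or binding partners, were listed by function and not by how they moved, and 59 were tested. Under PBS 30 of the 59 were called, 11 higher and 19 lower, where 42.9% of all genes were called, 21.3% higher. Under pyridostigmine 12 were called, 4 higher and 8 lower, against 12.2% of all genes, 8.06% higher, and all 12 had also been called under PBS. Scaling by total counts, under which the median of all genes was 0.39 in place of 0.0094 under PBS and 0.19 in place of 0.042 under pyridostigmine, gave 17 higher and 10 lower under PBS and 7 higher and 5 lower under pyridostigmine.

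Both other SH3-binding domain kinases fell in both arms, 2 of 2 tested, where 21.6% and 4.17% of all genes were called lower. Sbk3 differed by −2.58 (SE 0.46, adjusted p = 0.000132) in edgeR under PBS and Sbk1 by −2.13 (SE 0.34, adjusted p = 4.59e-05). The difference of Sbk2 itself was −2.72 under PBS. Under pyridostigmine Sbk3 was at −1.76 and Sbk1 at −1.13, also called, and Sbk2 at −1.62. Sbk1 ran from 146 to 235 CPM in WT_PBS and 16.6 to 73.4 in DTR_PBS, with no overlap. The call of Sbk1 under pyridostigmine was lost without DTR_PYR 1, 2 or 3, and those of Sbk3 were kept in all 33 alternatives.

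Of 2 tested relatives of Snai3, 1 rose in both arms, where 21.3% and 8.06% of all genes were called higher. Snai1, a repressor known from the change of epithelial into mesenchymal cells, rose where Snai3 fell: 2.75 (SE 0.45, adjusted p = 6.58e-05) under PBS in edgeR and 1.78 under pyridostigmine. Its libraries ran from 3.26 to 7.77 CPM in WT_PBS and 20.95 to 64.3 in DTR_PBS. Snai2 was at −0.30 and −0.26 and did not pass. Under pyridostigmine the call of Snai1 was lost with limma voom, at 0.84, and without DTR_PYR 2, at 1.15.

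Elongation factors of the S-II family also differed in sign. Tcea2 fell by 0.79 under PBS and by 1.02 under pyridostigmine on the log2 scale, and the widely expressed Tcea1 rose by 0.62 and 0.95. The PBS call of Tcea1 was lost in 16 of 33 alternatives and its call under pyridostigmine in 0. For Tcea2 the call was lost in 5 of 33 under PBS and in 7 of 33 under pyridostigmine.

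Of 10 other zinc-dependent histone deacetylases, 5 fell and 0 rose under PBS, where 21.6% of all genes were called lower, and each of the 5 fell less than Hdac11. Hdac5 differed by −1.04 (SE 0.21, adjusted p = 0.00038), Hdac4 by −0.70 and Hdac3 by −0.49 in edgeR. Under pyridostigmine 2 were called lower, Hdac9 at −0.97 and Hdac3 at −0.44, where 4.17% of all genes were. Hdac5 and Hdac4 are class II enzymes known to restrain the transcription factor MEF2 in heart muscle. Under total-count scaling the calls of Hdac3 were lost, at −0.13 under PBS and −0.29 under pyridostigmine. Hdac9 was also called under PBS, and its call was lost in 8 of 33 alternatives in each arm.

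Among 16 tested ephrins and Eph receptors, 5 fell and 2 rose under PBS, where 42.9% of all genes were called, and 1 fell under pyridostigmine, where 12.2% were. Ephb1 differed by −2.23 (SE 0.35, adjusted p = 4.59e-05) under PBS in edgeR and −1.24 under pyridostigmine. Epha8 and Ephb2 rose by 5.38 and 2.58 under PBS. Epha8 was near 0 in the WT libraries, 0 to 0.386 CPM in WT_PBS, against 0.494 to 25.01 in DTR_PBS, so its fold is poorly fixed. Ephb2 was low too, at 0 to 1.57 CPM in WT_PBS against 2.80 to 5.90 in DTR_PBS, which limits its fold as well. The other transmembrane ephrins were at −0.43 for Efnb1 and −0.30 for Efnb2 and did not pass. Without DTR_PYR 1 the call of Ephb1 under pyridostigmine was lost.

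The relatives listed for Lrrc4b were netrin-G ligands and the binding partners of that family, not of Lrrc4b alone. Among them the receptor phosphatase Ptprf rose by 1.51 under PBS and 1.06 under pyridostigmine. Ptprs, of the same phosphatase family, was at −0.67 and −0.45 and the netrin-G protein Ntng2 at −1.03 and −0.82, all called lower. Of these calls under pyridostigmine, that of Ntng2 was lost in 21 of 33 alternatives, that of Ptprs in 10 and that of Ptprf in 5.

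Filamin C, encoded by Flnc, binds Ky in muscle, and it rose where Ky fell, from 613 to 907 CPM in WT_PBS to 2806 to 6482 in DTR_PBS. Its difference was 2.29 (SE 0.36, adjusted p = 4.96e-05) under PBS in edgeR and 1.78 under pyridostigmine, kept in all 33 alternatives. Flna rose by 1.26 under PBS and was at 0.64 under pyridostigmine, not called.

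Of 8 tested relatives of Fndc5, 3 rose and 0 fell under PBS, where 42.9% of all genes were called, 21.3% higher. Fndc3b, Fndc3a and the integrin subunit Itgav, part of a receptor reported for irisin, rose by 0.82, 0.83 and 1.40 under PBS, and their 0.44, 0.57 and 0.80 under pyridostigmine did not pass. Ppargc1a, the coactivator known to induce Fndc5 in muscle, was at −0.36 and −0.37 and did not pass.

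Of 7 tested small-molecule methyltransferases beside Inmt, 3 fell and 1 rose under PBS, where 42.9% of all genes were called, 21.6% lower. Hnmt, which methylates histamine, differed by −2.33 (SE 0.59, adjusted p = 0.00239) in edgeR under PBS, and its 0.14 under pyridostigmine did not pass. Gnmt, which methylates glycine, fell by 1.08, and Nnmt, which methylates nicotinamide, rose by 1.52. Smco4 was the only tested relative of Smco1 and fell by 1.08 under PBS, whereas its −0.51 under pyridostigmine did not pass.

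**Figure D4:**
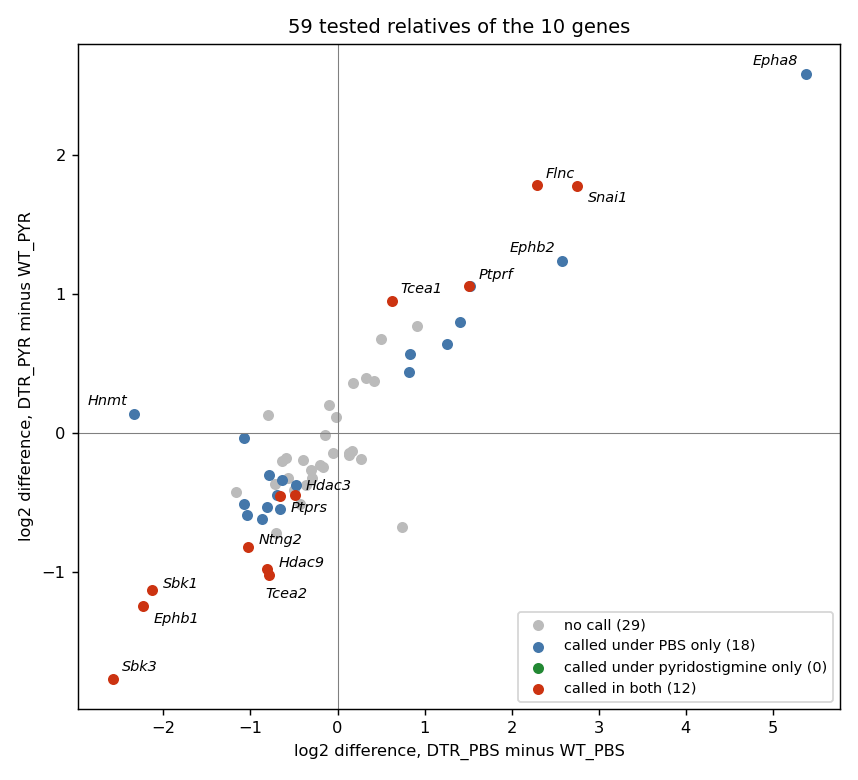
Fitted log2 injury difference of the 59 tested relatives under PBS (horizontal) and pyridostigmine (vertical); each point is a gene, coloured by the arm in which its adjusted p was under 0.05, and the arms share no samples. The 12 genes called in both arms have the same sign in both, from Sbk3 at lower left to Snai1 and Flnc at upper right.

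The nearest tested gene on each side of each member lay 0.87 to 151 kb away. Of these 20 neighbours, 8 were called lower and 3 higher under PBS, where 42.9% of all genes were called, and 5 lower and 3 higher under pyridostigmine, against 12.2%. The closest was Sbk3, 0.87 kb from Sbk2 on the same strand, with the window printed for Sbk2 in the gap. Rnf166, 5.41 kb from Snai3, differed by −1.27 (SE 0.20, adjusted p = 4.59e-05) under PBS in edgeR and −0.77 under pyridostigmine. Both neighbours of Lrrc4b, Syt3 and Aspdh, were called lower under PBS, at −2.01 and −2.25, while their −0.98 and −1.81 under pyridostigmine did not pass. Aspdh was near 0 throughout, at 0.214 to 1.63 CPM in WT_PBS and 0 to 0.541 in DTR_PBS, so its fold is poorly fixed. Its call under PBS was lost in 1 of 32 alternatives.

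Among the other neighbours, some rose beside a member that fell. Fbln2, a matrix gene 37.8 kb from Hdac11, rose by 1.67 and 1.09, and Nup210 on its other side by 0.65 and 0.67. Ssc5d beside Sbk2 rose by 0.63 and 0.70; its GENCODE locus overlaps that of Sbk2 on the opposite strand, with 0 shared exon bases. Crhr2 beside Inmt and Zfp46 beside Tcea3 fell in both arms. Cep63 beside Ky fell by 0.65 under PBS, its −0.27 under pyridostigmine did not pass, and Ephb1, on the other side of Ky, lies 151 kb away. The nearest genes of Smco1, Efnb3 and Fndc5 were not called in either arm, among them Rnf168, 2.68 kb from Smco1, and Wrap53, 1.55 kb from Efnb3. The calls under pyridostigmine of Zfp46 and Nup210 were lost in 11 and 13 of 33 alternatives, and those of Crhr2, Ssc5d and Fbln2 in 7, 6 and 2.

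The gene outside the 10 whose log2 CPM was most like each member over the 24 libraries was named by Pearson r. Genes of energy metabolism were the nearest for 3 members. Hadh, a fatty acid oxidation enzyme, was nearest to Ky and to Efnb3, both at r = 0.991, and Ndufv1, a subunit of respiratory complex I, was nearest to Tcea3 at 0.987. Dhrs7c, a dehydrogenase of muscle sarcoplasmic reticulum, was nearest to Fndc5 at 0.990. The nearest to Snai3 was Camk2b at 0.947, to Inmt Cytl1 at 0.953, to Smco1 Enpp5 at 0.968, to Sbk2 Tmem179 at 0.969, to Hdac11 Cyfip2 at 0.973 and to Lrrc4b Gigyf1 at 0.969. The 24 libraries share the injury contrast and their depth, so these r describe a common order of libraries and nothing more.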

How the data were processed

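The authors deposited raw gene counts for 46078 Ensembl genes in 24 libraries, per the file headers, and only this unfiltered count table was used. HTSeq, Bowtie2, TopHat, edgeR, TopHat2 2.1.1, DESeq and the build GRCm38 are listed in the submitters' processing notes, with no role or order. Per the labels' protocols, polyadenylated RNA was read from one end without strand information. Snai3 has no symbol in the table and was found by its gene ID through GENCODE vM21, and its coordinates are from there. For the other 9 members the table's own locus is given, its start raised by 1.

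A gene was tested if it exceeded 0.5 CPM in 6 or more libraries, as 15456 did. All 10 members passed, each through its uninjured libraries at least. Counts were scaled by TMM and fitted with edgeR 4.0.16 (glmQLFit, glmQLFTest; R 4.3.3), with 1 coefficient for each of 4 groups of 6, and called at a two-sided Benjamini-Hochberg adjusted p under 0.05 over all genes tested. Intervals (95%) use the normal distribution and the SE, and log2 CPM had a prior count of 2. Alternatives used limma 3.58.1, DESeq2 1.42.0, other scalings, filters and subsets of libraries. Total counts per library ranged from 1877914 to 37842245, and intervals and floors from counts cover counting error only.

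The members, relatives, marker lists and tests were chosen with earlier results of these data known. Named were all members, at most 3 called relatives per family and contrast by adjusted p, called neighbours, genes that overlap a member, and the gene most like each member. Snai2, Efnb1, Efnb2, Ppargc1a, and the uncalled neighbours Rnf168 and Wrap53 were named after their values were seen.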

Additional observations from a re-analysis of the deposited data

Results flagged for a closer look

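Each member was looked at in each of the 4 groups of 6 libraries for a library that stood apart, which made 40 sets. In 1 set, Fndc5 in WT_PYR, the highest library, number 1 at 567 CPM, was separated from the next by 0.79 of the whole range of the group. The cut-off used to flag a library lay below this gap, and by chance about 1 in 20 sets would pass that cut-off.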

How the results depend on the processing

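The count of members called with pyridostigmine in injured hearts was 0 in the reported fit, 3 with DESeq2, 8 with limma voom and 0 to 8 when 1 library was left out; it was 0 under the other alternatives. Counts for the drug in uninjured hearts and for the interaction were 0 throughout. Under pyridostigmine, the 12 relatives called became 7 with limma voom, 7 with no low-count filter, 31 without DTR_PYR 4 to 6 and 5 to 21 with 1 library left out (5 without DTR_PYR 1 or 2, 21 without DTR_PYR 4), and the 8 neighbours became 4 with limma voom, 5 with no filter, 5 with only the groups compared and 3 to 9 with 1 library left out (4 without WT_PYR 4 or 6 or DTR_PYR 1 or 3, 3 without DTR_PYR 2). Under PBS the counts stayed within 27 to 32 relatives and 10 to 12 neighbours. Without DTR_PYR 4 to 6 the drug difference in injured hearts was −0.25 for Ky, −0.22 for Sbk2, −0.14 for Efnb3, −0.14 for Hdac11 and −0.0054 for Fndc5, and the interaction −0.32, −0.81, −0.28 and −0.33 for the first 4; fewer and more strongly injured libraries make that alternative by its construction. For the drug in uninjured hearts, Fndc5 was 0.049 with total-count scaling, 0.0035 with limma voom and 0.0056 with only those groups, and with 1 library left out Fndc5 ran from −0.066 to 0.051, Ky from −0.012 to 0.14 and Tcea3 from −0.033 to 0.11. For each other change the cause was not tested. The injury differences of the 10 members, and those of relatives and neighbours that were called, kept their sign in every alternative run; values named as not passing were not rerun. The 39 calls of relatives and neighbours under PBS held in all alternatives for 25, and the 18 under pyridostigmine for 4. Depth limits Snai3, Smco1, Sbk2, Inmt and Ky most, with 0 to 9 reads in some injured libraries. No paired analysis was possible because the titles carry animal tags and no replicate number shared between groups.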
